A study of Mus musculus with 16 samples.

Results

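The subject here is fibronectin and 8 subunits of the integrins that bind it or the collagens around it, at the level of mRNA: *Fn1*, *Itga1*, *Itga2*, *Itga5*, *Itga11*, *Itgav*, *Itgb1*, *Itgb3* and *Itgb5*. The genes were taken by symbol from the count table, which held 55487 gene IDs, and all 9 were found once. The table comes from bulk RNA-seq of cells from mouse skin, separated by CD45, a surface protein of leukocytes: the cells that carry it are called immune here, and those without it stromal. The stretched skin had been exposed to hypobaric pressure, a suction that pulls on the skin, and was taken 6 h later, and the control was unstretched skin of the matching area. With 2 fractions and 2 treatments there were 4 groups, each of 4 libraries. The sources used here give no strain, sex or age. Libraries are called by the number in their title, and nothing states that they came from separate animals, so the p-values rest on the spread among libraries, which may be technical.

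Fibronectin is a large secreted glycoprotein that cells assemble into fibrils by pulling on it through integrins. An integrin is a pair of membrane-spanning chains, one alpha and one beta, that grips the matrix outside the cell and is tied through talin, kindlin, paxillin and vinculin to actin inside it. Alpha5 pairs with beta1 as the main fibronectin receptor, alphaV pairs with beta1, beta3 or beta5 to bind fibronectin, vitronectin and the latent form of TGF-beta, and alpha1, alpha2 and alpha11 pair with beta1 as collagen receptors. In skin, alpha11 is known from fibroblasts, alpha1 from vessels and lymphocytes, and alpha2 from keratinocytes and platelets.

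Total counts per library lay between 13563586 and 20467010 in the stromal controls, 21955174 and 26944965 in the stretched stromal libraries, 2645421 and 6662268 in the immune controls, and 7018743 and 20095580 in the stretched immune libraries. Depth therefore did not overlap between control and stretched libraries of a fraction. *Ptprc*, which encodes CD45, had 0.531 ± 0.561 CPM (CPM is the usual count scaled to library size, here with TMM factors over the 16 libraries; SD, n = 4) in the stromal controls and 416 ± 181 in the immune controls. The summed CPM of 6 leukocyte markers was 4.69 to 18.7 over the 8 stromal libraries and 2537 to 6094 over the 8 immune ones, while the sum of 10 fibroblast markers was 40032 to 64961 and 1403 to 9867. The 1738 odorant and pheromone (olfactory and vomeronasal) receptor genes, not known for a role in skin, took 5942 CPM in immune control 4, 408 in stromal stretched 7 and 200.3 in stromal stretched 8, against 17.8 to 68.7 in the other 13 libraries. Immune stretched 2 stood apart in another way, with a neutrophil marker sum of 38324 CPM against 363 to 1098 in the rest of its group. In immune controls 3 to 6 that sum was 7970, 3137, 10608 and 637 CPM. Without stretched 2, the stretched immune libraries therefore had less of it than controls 3, 4 and 5.

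**Figure D1:**
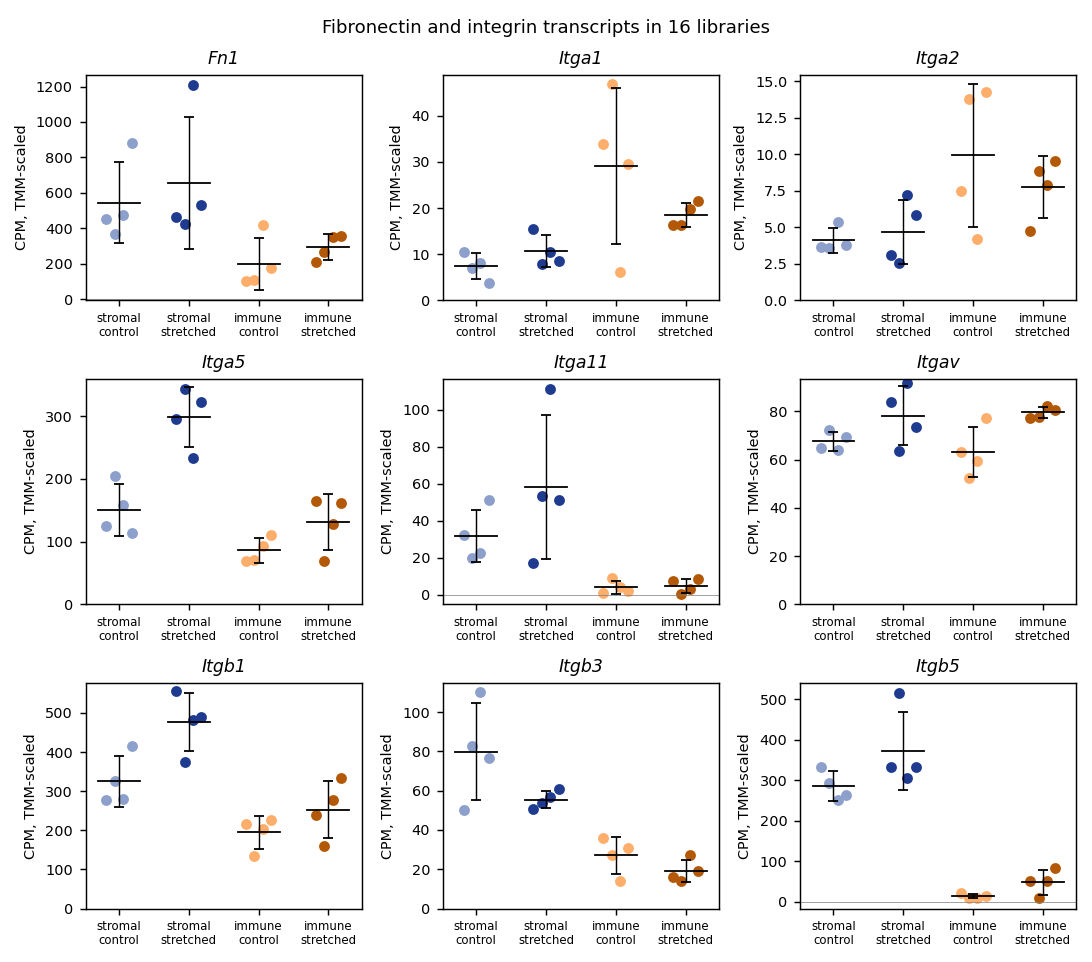
TMM-scaled CPM of each of the 9 genes (y axis, linear, starting at 0) in the 16 libraries by group (x axis). Points are libraries, the horizontal line is the group mean and the bar is 1 SD. *Itga5* is higher in all 4 stretched than in all 4 control stromal libraries, and *Itgb5*, *Itgb3* and *Itga11* are lower in every immune than in every stromal library.

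Levels of different genes were compared per exon length, as RPKM (CPM divided by the length of the gene's merged exons in kilobases). In the stromal controls the beta subunits *Itgb5* (80.3 ± 10.2 RPKM, SD, n = 4) and *Itgb1* (79.7 ± 15.9) stood highest and overlapped. *Fn1* followed at 46.5 ± 19.6 and *Itga5* at 30.5 ± 8.4 RPKM, with libraries that overlapped. *Itgb3* had 13.5 ± 4.2 RPKM, *Itgav* 6.29 ± 0.36 and *Itga11* 6.15 ± 2.74. The collagen-receptor chains *Itga2* and *Itga1* were the lowest of the 9, at 0.574 ± 0.121 and 0.395 ± 0.150 RPKM. In the immune controls the order differed: *Itgb1* led at 47.8 ± 10.3 RPKM, *Itga5* and *Fn1* lay at 17.4 ± 4.0 and 17.1 ± 12.6, and *Itgb5* had 3.98 ± 1.57. *Itga11*, at 0.769 ± 0.697 RPKM, was the lowest member there, with 4 to 39 reads per library.

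The mix of beta chains differed between the stromal and immune fractions. Of the summed RPKM of *Itgb1*, *Itgb3* and *Itgb5*, *Itgb5* took 46.4 ± 6.6% (SD, n = 4) in the stromal controls and 45.0 ± 9.3% in the stretched stromal libraries. In the immune fraction it took 6.97 ± 1.82% in the controls and 15.6 ± 7.1% in the stretched libraries. Stretched 2 had the lowest *Itgb5* share of the stretched immune group, 5.42%. It also had the lowest sum of 10 fibroblast markers there, 1403 CPM against 7828 to 9867 CPM in the rest. The part of that sum in the shares was not tested. *Itgb1* made up 45.7 ± 5.9% and 50.9 ± 9.1% in the stromal groups and 84.7 ± 4.3% and 80.1 ± 6.1% in the immune groups. The range over the stromal libraries (39.2% to 58.9% for *Itgb5*) did not overlap that over the immune ones (5.16% to 21.5%). *Itgb3* was the smallest share in the stromal groups, at 7.90 ± 2.87% and 4.10 ± 0.52%. In the immune groups it was 8.30 ± 2.98% and 4.35 ± 1.23%, where it overlapped *Itgb5*. Set against *Itgav*, their alpha partner, *Itgb5* was at 12.8 ± 1.9 times its RPKM in the stromal controls and 0.677 ± 0.251 times in the immune controls, and *Itgb3* at 2.16 ± 0.72 and 0.785 ± 0.268 times. These ratios rest on merged-exon lengths of 10744 (*Itgav*), 3553 (*Itgb5*) and 5901 bases (*Itgb3*) and do not measure paired chains. Without that division the means in the stromal controls were 67.6, 285 and 79.8 CPM.

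**Figure D2:**
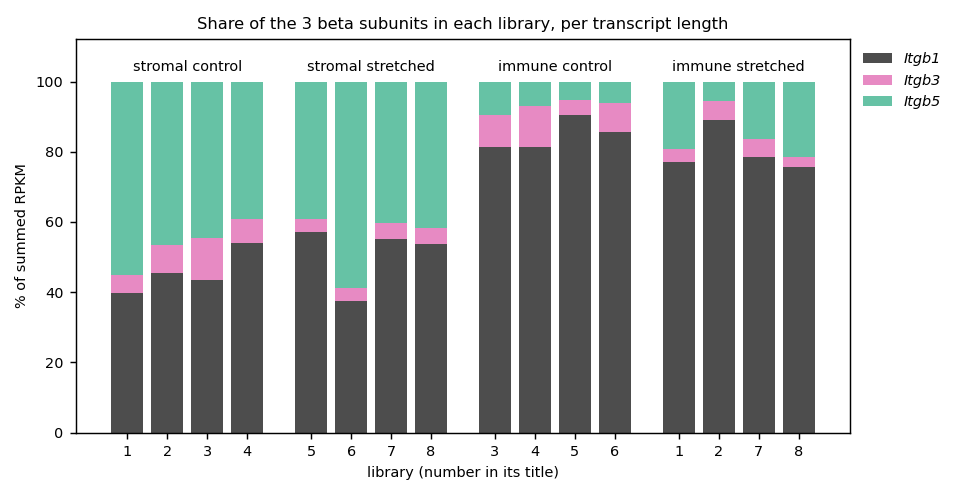
Share (y axis, %) of *Itgb1*, *Itgb3* and *Itgb5* in the sum of their RPKM, 1 bar per library, with the number in the library's title on the x axis and the 4 groups side by side. *Itgb5* takes 39.2% or more in every stromal library and at most 21.5% in every immune one.

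Among the receptor chains, 2 are shown with the sequence ahead of their start site: *Itga5*, the member that changed with stretch in the stromal fraction, and *Itgb5*, the member that differed most between the fractions in control skin. *Itga5* (ENSMUSG00000000555, chr15:103344286-103366763, minus strand, GRCm38) and *Itgb5* (ENSMUSG00000022817, chr16:33829665-33949338, plus strand) are protein-coding. The lines give the 250 bases before the RefSeq start (GRCm38.p6, 5′ to 3′ on the gene's strand, chr15:103366792-103367041 and chr16:33829415-33829664). Capitals mark the GC box, GGGCGG on either strand, a motif bound by Sp1.
Itga5: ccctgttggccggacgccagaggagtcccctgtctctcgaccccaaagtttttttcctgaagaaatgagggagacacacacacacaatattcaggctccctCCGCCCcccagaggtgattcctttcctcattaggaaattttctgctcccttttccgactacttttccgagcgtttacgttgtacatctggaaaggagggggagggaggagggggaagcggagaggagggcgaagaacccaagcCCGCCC
Itgb5: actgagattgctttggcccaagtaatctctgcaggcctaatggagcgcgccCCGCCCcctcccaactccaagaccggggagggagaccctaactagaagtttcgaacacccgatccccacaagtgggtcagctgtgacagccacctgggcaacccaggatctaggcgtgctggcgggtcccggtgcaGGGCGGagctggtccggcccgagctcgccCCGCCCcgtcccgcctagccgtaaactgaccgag
The GC boxes began 149 and 6 bases upstream of the *Itga5* start and 199, 63 and 34 bases upstream of the *Itgb5* start. RefSeq windows were at hand for 7 of the 9 members, not for *Fn1* and *Itgb3*. *Itgb1* held 1 GC box, 151 bases upstream, and the windows of *Itga1*, *Itga2*, *Itga11* and *Itgav* held 0, while 32.7% of 32851 windows of this length hold one. Of the other 6 motifs searched on both strands, 0 of the 7 windows held any: the CRE (TGACGTCA, in 1.55% of all windows), the AP-1 site (TGAGTCA or TGACTCA, 4.46%), the CCAAT box (33.8%), the TATA box (TATAAA, 12.4%), the CArG box of serum response factor (1.47%) and the NF-kB site (3.9%). A match describes the letters in this window and is not a measured binding site.

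The first comparison asked which of these genes differed in stromal cells between stretched and unstretched skin. *Itga5*, the alpha chain of the fibronectin receptor, was the 1 member of 9 that rose, about 2-fold. *Fn1* itself and the other 7 subunits did not pass the test. Over all genes tested 4.98% were called at a Benjamini-Hochberg adjusted p under 0.05 in edgeR's quasi-likelihood test (800 of 16074), 2.05% higher and 2.93% lower in stretched skin. All 9 members passed the filter on low counts. Their median log2 fold change was 0.39, with 8 of 9 above 0, beside 0.01 and 50.6% for all genes. The count of called genes rested on single libraries too: it was 0 to 2 without stromal control 1, 2 or 3 or stretched 6, 7 or 8, and 1589 without stretched 5. Fewer or more cells of a type and less or more RNA per cell cannot be told apart in bulk RNA, here and below.

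*Itga5* had 124, 205, 158 and 114 CPM in stromal controls 1 to 4 and 296, 342, 234 and 322 CPM in stretched libraries 5 to 8. Every stretched library was above every control. Groups that do not overlap were seen for 1 member of 9 and for 18% of all genes tested. The means were 150.4 ± 41.2 and 298 ± 47 CPM (SD, n = 4), a log2 fold change of 0.997 ± 0.224 (SE; 95% interval 0.51 to 1.49) with an edgeR quasi-likelihood adjusted p of 0.0436. The direction held in all 16 alternatives (0.54 to 1.23) but the call held in 4 of them, and leaving out any single library other than stretched 5 ended it (adjusted p 0.0528 to 0.138; 0.0386 without stretched 5). Without stretched 7 and 8, which carried receptor-gene reads, the log2 fold change was 1.07 with an adjusted p of 0.267, and with detected genes per library as a covariate it was 1.12 with an adjusted p of 0.385. Beside this rise, the summed level of 9 pericyte and smooth muscle markers, none at 0, was 145 to 257 CPM in the controls and 339 to 371 CPM in the stretched stromal libraries. Of the 9, *Pdgfrb* was the 1 that was called, with a log2 fold change of 0.77 ± 0.19. Most of the sum came from *Pdgfrb* (means of 93.2 CPM in control and 158 CPM in stretched libraries) and *Des* (53.4 and 98.0 CPM). *Rgs5* and *Notch3* had means of 5.64 and 2.38 CPM in the stretched stromal libraries. The part of these markers and of depth in the *Itga5* result was not tested.

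**Figure D3:**
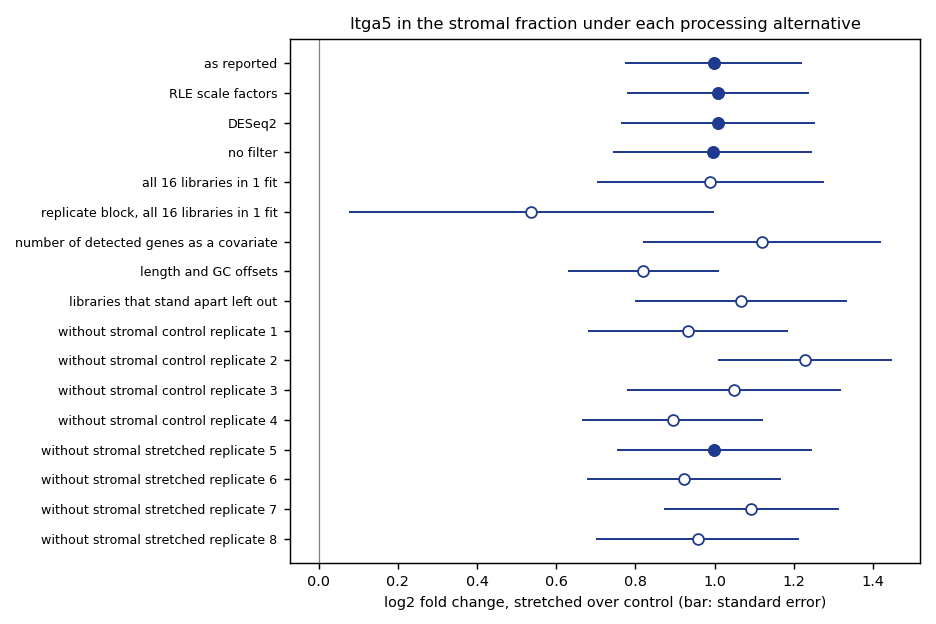
Log2 fold change of *Itga5* in the stromal fraction (x axis, stretched over control, with the standard error as a bar) as reported and under 16 alternatives (y axis). Filled points passed the adjusted p of 0.05. The values lie between 0.54 and 1.23, and 4 of the alternatives kept the call.

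*Itgb1*, the beta chain that completes the fibronectin and collagen receptors, had 276, 327, 281 and 416 CPM in stromal controls 1 to 4 and 556, 375, 483 and 491 CPM in the stretched libraries. Control 4 lay above stretched 6, so the groups overlapped. Its log2 fold change was 0.56 ± 0.21 (95% interval 0.11 to 1.01), with a p of 0.0196 in edgeR's quasi-likelihood test that became 0.114 after adjustment over all genes. DESeq2 called it (adjusted p 0.0381). *Itga5* RPKM per *Itgb1* RPKM was 0.396 ± 0.129 in the stromal controls and 0.535 ± 0.159 in the stretched libraries, with ranges that overlapped.

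*Fn1*, the ligand, showed 453, 366, 474 and 878 CPM in stromal controls 1 to 4 and 461, 426, 1210 and 530 CPM in stretched 5 to 8. One library in each group (control 4 and stretched 7) was far above the rest, and the groups overlapped. The log2 fold change was 0.29 ± 0.38 (95% interval -0.55 to 1.13, edgeR adjusted p 0.667). It took its sign from 1 library: without stretched 7 it was -0.20.

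None of the alphaV group passed the test. *Itgav*, the shared alpha chain, had 64.7, 72.2, 64.0 and 69.6 CPM in the controls and 83.9, 63.6, 91.6 and 73.7 CPM in the stretched stromal libraries, with a log2 fold change of 0.22 ± 0.16 (edgeR adjusted p 0.421). *Itgb3*, the beta chain of the vitronectin receptor and, with another alpha chain, of the platelet fibrinogen receptor, had 50.0, 82.8, 110.0 and 76.5 CPM in the controls and 50.6, 53.6, 57.0 and 60.7 CPM in the stretched libraries. Its 3 highest libraries were controls, but control 1 was the lowest of the 8. The log2 fold change of *Itgb3* was -0.51 ± 0.22 (95% interval -1.005 to -0.02), the 1 negative value among the 9, with an unadjusted p of 0.0412 and an edgeR adjusted p of 0.167. *Itgb5* had 333, 293, 251 and 264 CPM in the controls and 332, 515, 306 and 332 CPM in the stretched libraries, a log2 fold change of 0.39 ± 0.21 (edgeR adjusted p 0.264). Stretched 6 was alone at the top, the other 3 stretched libraries lay just below control 1, and without stretched 6 the log2 fold change was 0.19.

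Of the collagen receptors, *Itga11* had 32.4, 20.01, 22.8 and 51.1 CPM in the controls and 17.4, 53.2, 111 and 51.2 CPM in the stretched stromal libraries. The lowest and the highest of the 8 were both stretched (5 and 7). Its log2 fold change was 0.90 ± 0.48 (95% interval -0.14 to 1.95, edgeR adjusted p 0.250). *Itga1* had 3.77 to 10.5 CPM in the controls and 7.93 to 15.5 in the stretched libraries, and *Itga2* 3.59 to 5.38 and 2.57 to 7.201. Both overlapped, with log2 fold changes of 0.54 ± 0.33 and 0.21 ± 0.37 (edgeR adjusted p 0.316 and 0.751).

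Other genes of the adhesion machinery were read in lists. Of 19 integrin activators and core adhesion proteins, 2 rose in stretched stromal cells and 0 fell, with a median log2 fold change of 0.20. The 2 were *Vcl*, vinculin, which reinforces loaded adhesions (21.04 ± 5.28 to 43.0 ± 10.1 CPM, log2 1.04 ± 0.24), and *Pxn*, paxillin, a scaffold of the adhesion plaque (51.2 ± 6.3 to 82.5 ± 6.6 CPM, log2 0.70 ± 0.16). For both genes the 4 stretched libraries lay above the 4 controls, and the adjusted p was 0.0456 and 0.0453 in edgeR's quasi-likelihood test. The pericyte and smooth muscle sum given beside *Itga5* separated the same libraries. Of 9 skeletal muscle markers tested, 1 rose (*Myh1*, log2 2.34 ± 0.56), with a median of 0.71 and a sum, none at 0, of 493 to 1230 CPM in the controls and 875 to 1902 CPM in the stretched libraries. The part of these markers in the *Vcl* and *Pxn* results was not tested. Of 16 ligands of the fibronectin-type (RGD-binding) integrins, 3 rose and 0 fell, with a median of 0.55. *Thbs1*, thrombospondin 1, went from 572 ± 219 to 1285 ± 136 CPM (log2 1.17 ± 0.27), and *Ltbp1*, which holds latent TGF-beta in the matrix, from 96.1 ± 4.4 to 159.9 ± 28.8 CPM (log2 0.74 ± 0.18). *Tnc*, tenascin C, a matrix protein of wounds, went from 8.24 ± 2.92 to 46.9 ± 49.9 CPM (log2 2.502 ± 0.615), and its stretched mean rested largely on library 5 (120.3 CPM, against 13.7 to 35.9 in the rest). Of 10 other matrix and laminin subunits tested, 1 rose: *Itgb6*, the epithelial partner of alphaV, at 0.064 to 0.984 CPM in the controls and 2.22 to 5.27 in the stretched libraries (log2 3.03 ± 0.61). Keratinocyte markers overlapped between these groups (199.9 to 1501 and 573 to 1466 CPM summed over 8 genes), 0 of 8 were called, and their part in the *Itgb6* result was not tested. Of 10 collagen genes that encode ligands of alpha1, alpha2 and alpha11, 0 were called by edgeR's quasi-likelihood test, with a median of 0.34. *Col4a1* (0.59 ± 0.19) and *Col4a2* (0.51 ± 0.20) had the smallest p among them and adjusted p of 0.0847 and 0.125. DESeq2 called *Col4a1* (adjusted p 0.0193) and, among the other matrix subunits, *Itga9* (0.0372). Like that of *Itga5*, the calls of these 6 genes were lost in 11 or 12 of 16 alternatives: leaving out stromal control 1, 2 or 3 or stretched 6, 7 or 8 ended all 6 (adjusted p 0.0572 to 0.138), and control 4 those of *Ltbp1* and *Tnc*. Without stretched 5 *Tnc* kept its call at a log2 of 1.45.

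**Figure D4:**
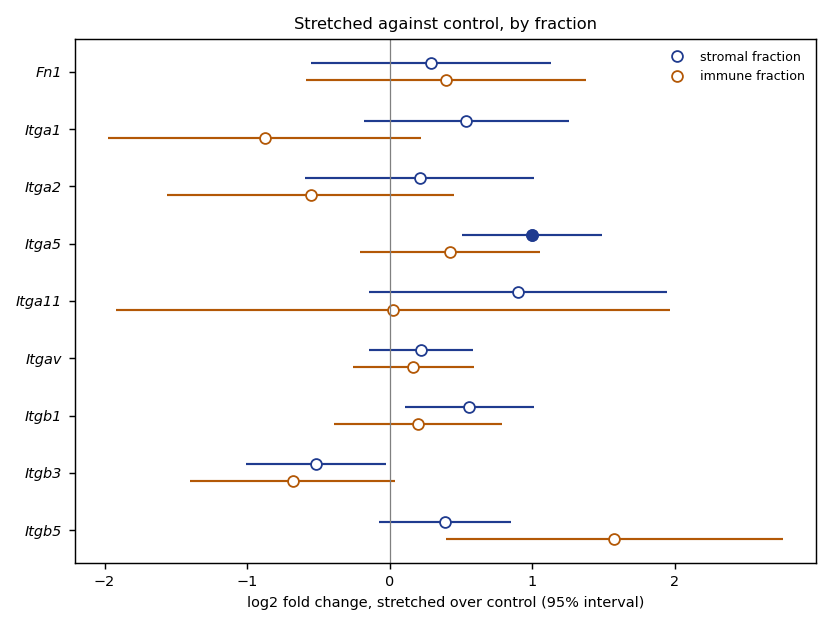
Log2 fold change of the 9 genes (x axis, stretched over control) in the stromal and immune fractions, with 95% intervals as lines. Filled points passed the adjusted p of 0.05: *Itga5* in the stromal fraction is the only one. The intervals of *Itgb1* and *Itgb3* in the stromal and of *Itgb5* in the immune fraction leave out 0 without passing after adjustment.

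In the immune fraction no member passed the test between stretched and control libraries, and neither did any other gene. edgeR's quasi-likelihood test called 0 of 14183 genes (0%), with 2467 at an unadjusted p under 0.05, where DESeq2 called 781 and 1 fit over all 16 libraries called 667. DESeq2 called 0 of the members and the fit over all libraries called 1, *Itgb5*. All 9 members were tested, with a median log2 fold change of 0.17 and 6 above 0, beside -0.02 for all genes. Without stretched 2, 45 genes and 1 member (*Itgb5*) were called. Groups that do not overlap were seen for 1 member of 9, *Itgav*, and for 11.7% of all genes tested.

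*Itgb5* was the member nearest to a call. It had 21.9, 10.1, 10.1 and 14.4 CPM in immune controls 3 to 6 and 51.7, 8.47, 50.1 and 82.7 CPM in stretched 1, 2, 7 and 8. Stretched 2 was the lowest of the 8 libraries and the other 3 stretched ones were the highest. The log2 fold change was 1.58 ± 0.53 (95% interval 0.40 to 2.76), with an unadjusted p of 0.0138 and an edgeR adjusted p of 0.205 (0.0432 to 0.470 over the alternatives). Without stretched 2 it was 1.92 with an adjusted p of 0.0469. The summed level of 10 fibroblast markers, none at 0, was 1403 CPM in stretched 2 and 7828, 9123 and 9867 CPM in stretched 1, 7 and 8, and 7448, 5335, 1495 and 2945 CPM in controls 3 to 6. The part of this sum in the *Itgb5* values, and that of the neutrophil markers given above, was not tested. Of the 10 markers 0 were called, with a median of 0.62, and 0 of 10 macrophage and monocyte markers were called, although their sum was 3643 to 8555 CPM in the controls and 8909 to 16355 CPM in the stretched libraries.

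*Itga5* had 69.2, 70.9, 93.6 and 110 CPM in immune controls 3 to 6 and 165, 69.4, 128 and 162 CPM in the stretched libraries. Stretched 2 lay among the controls and the other 3 above them. The log2 fold change was 0.42 ± 0.29 (95% interval -0.21 to 1.06, edgeR adjusted p 0.450). *Itgb1* had 217, 134, 203 and 227 CPM in the controls and 239, 160.0, 278 and 335 CPM in the stretched libraries (log2 0.20 ± 0.27, adjusted p 0.717), again with stretched 2 lowest in its group. *Fn1* had 101.1, 107, 415 and 173 CPM in the controls and 207, 264, 349 and 357 CPM in the stretched libraries (log2 0.39 ± 0.44, adjusted p 0.656). Immune control 5, the highest for *Fn1*, had the lowest fibroblast marker sum of its group. Its sums of macrophage and monocyte (8555 CPM), neutrophil (10608 CPM) and platelet and megakaryocyte markers (1752 CPM) were the highest of that group. In the immune controls nearly all of the platelet and megakaryocyte sum came from *Pf4* (mean 1089 CPM), and *Gp1bb* had no reads. Stretched 1 had the highest macrophage and monocyte sum of the stretched group (16355 CPM) and its lowest *Fn1* (207 CPM). The part of these marker sums in the *Fn1* values was not tested.

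*Itgav* was the steadiest of the 9 in the stretched immune libraries, at 77.4, 77.9, 82.5 and 80.6 CPM against 63.1, 52.6, 59.5 and 77.3 CPM in the controls. The groups were separated by less than 1 CPM, and the log2 fold change was 0.17 ± 0.19 (edgeR adjusted p 0.667). *Itgb3* had 35.9, 27.3, 14.3 and 30.6 CPM in the controls and 16.2, 14.3, 27.1 and 19.1 CPM in the stretched libraries (log2 -0.68 ± 0.32, adjusted p 0.301). Controls 3, 4 and 6 were above every stretched library, control 4 by under 1 CPM, while control 5 was the lowest of the 8 with stretched 2 next to it. *Itga1* had 33.9, 46.8, 6.14 and 29.5 CPM in the controls and 16.3 to 21.4 CPM in the stretched libraries (log2 -0.88 ± 0.50, adjusted p 0.374), and *Itga2* had 7.51, 13.8, 4.18 and 14.3 CPM and 4.72 to 9.56 CPM (log2 -0.55 ± 0.45, adjusted p 0.534). Control 5 was the lowest of the controls for both. Beside them, the 9 blood endothelial markers had a median log2 fold change of -1.07, with 0 called and none at 0, and a sum of 136 to 793 CPM in the controls and 81.2 to 345 CPM in the stretched libraries, and their part was not tested. *Itga11* stayed between 0.413 and 8.95 CPM, on 2 to 162 reads, with a wide interval for its change (95% interval -1.92 to 1.97).

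In edgeR's quasi-likelihood test 0 of the other adhesion genes were called in the immune fraction. DESeq2 and the fit of all 16 libraries each called 4 of those named here, *Zyx*, *Sharpin*, *Postn* and *Col6a1* (adjusted p 0.0193 to 0.0454). The medians of the log2 fold change were -0.01 over 18 core adhesion proteins, 0.26 over 16 ligands, 0.77 over 10 collagens, -0.51 over 9 other matrix subunits and 0.05 over 6 leukocyte subunits. Among those with the smallest p, *Zyx*, zyxin, a protein that gathers on strained actin fibres, had 99.6 ± 43.9 CPM in the controls and 277 ± 83 in the stretched libraries, without overlap (log2 1.34 ± 0.37, edgeR adjusted p 0.165). *Sharpin*, an inhibitor of integrin activation, had 26.4 ± 12.7 and 59.5 ± 6.5 CPM (log2 1.03 ± 0.31, adjusted p 0.182). *Itgb7*, a beta chain of lymphocytes and mast cells, had a log2 fold change of 0.85 ± 0.29 (adjusted p 0.211). *Postn*, periostin, a ligand of the alphaV integrins, stood at 2.15 ± 0.62 and *Col6a1*, a chain of collagen VI, at 1.85 ± 0.57, and *Itgb4*, the beta chain of hemidesmosomes, at -1.19 ± 0.54 (adjusted p 0.170, 0.189 and 0.289). For *Postn* and *Col6a1*, stretched 2, the library with the lowest fibroblast marker sum, was the lowest of the 8 at 10.7 CPM each, and the other 3 stretched libraries had 131 to 198 and 88.3 to 127 CPM. Without stretched 2 both were called (log2 2.53 and 2.22). Beside *Itgb4*, the 8 basal keratinocyte markers had a median of -1.20, with 0 called and none at 0, and a sum of 49.8 to 2178 CPM in the controls and 70.2 to 843 CPM in the stretched libraries. The part of these markers was not tested.

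Whether stretch acted differently on the members in the 2 fractions was tested as an interaction, the immune minus the stromal effect. edgeR's quasi-likelihood test called 0 of 18295 genes (0%) and thus 0 members, with 4232 genes and 1 member at an unadjusted p under 0.05, and DESeq2 called 1625 genes and 0 members. Without immune control 6 the count of genes was 1495, without immune stretched 2 it was 114, without immune control 4 it was 29, and that of members 0 each time. *Itgb5* was that member, at 1.39 ± 0.63 on the log2 scale (95% interval 0.07 to 2.72, adjusted p 0.197). The difference for *Itga5* was -0.38 ± 0.40 with a 95% interval of -1.23 to 0.47, so its rise in the stromal fraction is not shown to differ from the immune value. *Itga1* stood at -1.18 ± 0.61 (adjusted p 0.255), *Itgb1* at -0.18 ± 0.37 and *Fn1* at 0.29 ± 0.64. Among the ligands and adhesion proteins, *Tnc* (-4.64 ± 1.2, adjusted p 0.0756) and *Zyx* (1.70 ± 0.46, adjusted p 0.0775) were nearest to a call. DESeq2, the fit with no filter and the fit without immune control 6 called both, and *Itgb6* too (adjusted p 0.00379 to 0.0408). RLE scale factors shifted the median of all genes in this contrast by -0.22, and *Itgb3* (0.03 ± 0.41) and *Itgav* (0.12 ± 0.26) changed sign under them.

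The same genes were then compared between the sorted fractions. In control skin 7 of 9 members differed: *Fn1*, *Itga5*, *Itga11*, *Itgb3* and *Itgb5* were lower in immune than in stromal cells and *Itga1* and *Itga2* higher. In stretched skin 6 of 9 were lower (*Fn1*, *Itga5*, *Itga11*, *Itgb1*, *Itgb3* and *Itgb5*) and 0 higher. Over all genes, 49.4% of 15142 were called in control skin (26.6% higher in immune cells, 22.8% lower) and 49% of 17116 in stretched skin (23.9% higher, 25.1% lower). The members' median log2 fold change was -0.70 in control and -1.31 in stretched skin, beside 0.08 and -0.06 over all genes. These contrasts use the same libraries as the stretch comparisons and are not independent of them. How many of all genes separate the fractions without overlap was not counted, so separations of members below have no background share beside them.

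*Itgb5* differed most in control skin. At 285 ± 36 CPM in the stromal controls and 14.1 ± 5.6 in the immune controls (SD, n = 4), it was 18.8-fold lower in immune cells (log2 -4.24 ± 0.31, edgeR adjusted p 4.43e-06). In stretched skin it was 371 ± 96 and 48.3 ± 30.5 CPM, 8.39-fold lower (log2 -3.07 ± 0.55, adjusted p 0.00156). *Itga11* was 7.36-fold lower in control skin, at 31.6 ± 14.1 and 3.94 ± 3.58 CPM (log2 -2.88 ± 0.62, adjusted p 0.00304). In stretched skin it was 12.9-fold lower, at 58.3 ± 39.0 and 4.81 ± 3.81 CPM (log2 -3.69 ± 0.74, adjusted p 0.00280). *Itgb3* was 79.8 ± 24.6 and 27.03 ± 9.22 CPM in control skin (log2 -1.46 ± 0.32) and 55.5 ± 4.4 and 19.2 ± 5.7 CPM in stretched skin (log2 -1.66 ± 0.23). Each of these genes was lower in every immune than in every stromal library of its treatment and kept its call in all 16 alternatives. Beside them, the 10 fibroblast markers had a median log2 of -3.48 in control and -2.87 in stretched skin. Their sum was 1495 to 7448 CPM in the immune controls and 1403 to 9867 CPM in the stretched immune libraries. The part of fibroblast RNA in the immune values of these genes was not tested.

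*Fn1* was lower in immune cells by a log2 of -1.34 ± 0.48 in control skin (543 ± 229 against 199 ± 148 CPM, edgeR adjusted p 0.0375) and -1.31 ± 0.39 in stretched skin (657 ± 371 against 294 ± 72 CPM, adjusted p 0.0186). In control skin immune control 5 reached 415 CPM, above stromal control 2 (366 CPM). Without immune control 5 the log2 was -2.04. The call ended without immune control 3, 4 or 6 or stromal control 4 in control skin (-1.31 to -1.03), and without immune stretched 1 in stretched skin (-1.18, adjusted p 0.0570). Without stromal stretched 7 the stretched-skin value was -0.81 and kept its call. Without stromal stretched 7 and 8 and immune stretched 2 the stretched-skin value was -0.64 (adjusted p 0.0853). The *Fn1* call held in 10 of 16 alternatives in control skin and in 10 of 16 in stretched skin. Over all 16 the log2 ran from -2.06 to -1.03 in control and from -1.46 to -0.48 in stretched skin.

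*Itga5* was 150.4 ± 41.2 against 86.04 ± 19.69 CPM in control skin (log2 -0.70 ± 0.27, edgeR adjusted p 0.0478) and 298 ± 47 against 131 ± 44 CPM in stretched skin (log2 -1.32 ± 0.29, adjusted p 0.00450). With offsets for transcript length and GC content the control-skin value was -0.02 (edgeR adjusted p 0.950). The control-skin call also ended without immune control 3 or 5 or stromal control 2 or 3 (adjusted p 0.0593 to 0.145). That call held in 9 of 16 alternatives. *Itgb1* was 325 ± 65 against 195.2 ± 42.1 CPM in control skin (log2 -0.64 ± 0.25, adjusted p 0.0553) and 476 ± 75 against 253 ± 73 CPM in stretched skin (log2 -1.05 ± 0.27, adjusted p 0.0100). In control skin it was called in 4 of 16 alternatives, among them the fit without stromal control 3 (edgeR adjusted p 0.0460). Its 4 immune libraries lay below its 4 stromal ones in both treatments. *Itgav* was the member on which the fractions were nearest, with a log2 of 0.00 ± 0.20 (95% interval -0.44 to 0.44) in control and -0.11 ± 0.19 (-0.53 to 0.31) in stretched skin.

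*Itga1* and *Itga2* went the other way. *Itga1* was 7.34 ± 2.79 CPM in the stromal and 29.09 ± 16.98 CPM in the immune controls (log2 2.11 ± 0.54, edgeR adjusted p 0.00764), and *Itga2* 4.09 ± 0.86 and 9.93 ± 4.92 CPM (log2 1.40 ± 0.45, adjusted p 0.0248). Immune control 5 lay inside the stromal range for both. In stretched skin *Itga1* was 10.6 ± 3.5 and 18.5 ± 2.6 CPM, without overlap (log2 0.67 ± 0.26, adjusted p 0.0545), and *Itga2* 4.68 ± 2.21 and 7.76 ± 2.14 CPM (log2 0.58 ± 0.40, adjusted p 0.251). Without stromal stretched 5, or without immune stretched 2, *Itga1* was called there too (log2 0.90 and 0.79). The *Itga2* call in control skin held in 7 of 16 alternatives (log2 1.09 to 1.59 over all 16). Among the fits that ended it were those without immune control 4 or 6 or stromal control 1, 2 or 4 (1.09 to 1.34). Beside these values, 8 of 9 blood endothelial markers were higher in immune than in stromal controls and 7 of 9 in stretched skin. Their sum, with none at 0, was 136 CPM in immune control 5 and 363 to 793 CPM in the other 3 immune controls, against 36.0 to 127 CPM in the stromal controls. In stretched skin the sum was 81.2 to 345 CPM in the immune and 92.5 to 141 CPM in the stromal libraries. The summed level of 10 platelet and megakaryocyte markers was 540 to 1752 CPM in the immune controls, highest in control 5, and 38.5 to 77.7 CPM in the stromal controls. In the immune controls 1 gene, *Pf4*, made up nearly all of that sum (mean 1089 CPM, against 3.28 for *Ppbp*). *Gp1bb* was at 0 in all immune controls, and 2 of the 3 markers tested were higher in immune cells, while *Itga2b*, the platelet integrin chain, was lower (log2 -1.79). The part of these cells in the *Itga1* and *Itga2* values was not tested.

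**Figure D5:**
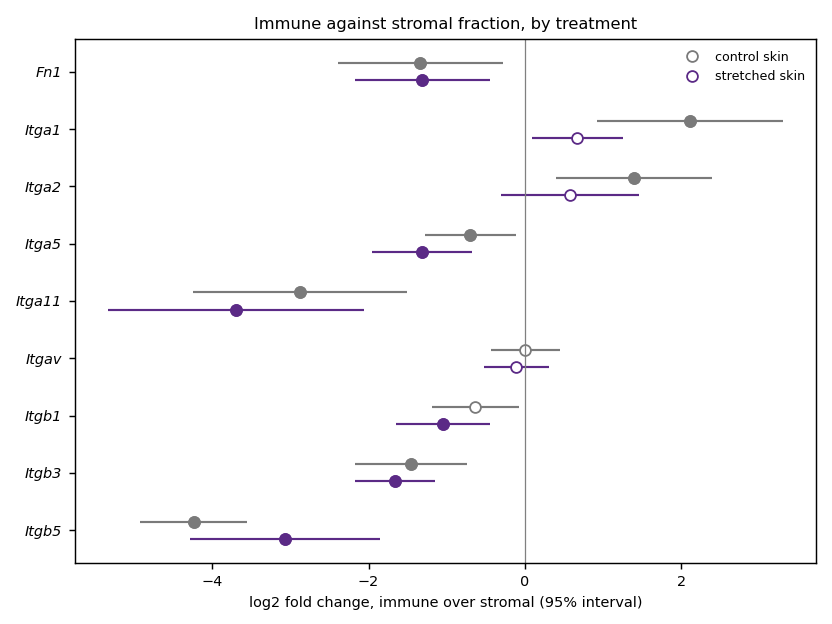
Log2 fold change of the 9 genes (x axis, immune over stromal) in control and in stretched skin, with 95% intervals as lines and filled points for adjusted p under 0.05. *Itgb5* lies farthest to the left in control skin (-4.24), *Itgav* next to 0 in both, and *Itga1* and *Itga2* to the right.

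The lists around the members set them in context. All 5 leukocyte integrin subunits tested in control skin were higher in immune cells, with a median log2 of 8.34, and 6 of 7 in stretched skin (median 6.86). *Itgam*, the alpha chain of Mac-1 on myeloid cells, stood at 10.005 ± 0.793 in control skin and *Itgb2*, its partner, at 7.90 ± 0.37 in stretched skin. Of 10 other matrix subunits tested in control skin, *Itga4*, a fibronectin and VCAM-1 receptor chain of leukocytes (7.94 ± 0.61), and *Itga6*, a laminin receptor chain (1.88 ± 0.66), were higher and *Itga2b*, the platelet partner of beta3, lower (-1.79 ± 0.40). In stretched skin 1 of 11 (*Itga4*, 6.10 ± 0.36) was higher and 5 were lower: *Itga2b*, *Itga7*, *Itga8*, *Itga9* and *Itgb6* (-2.01 to -1.12). All 10 collagens were lower in immune cells in both treatments (median -3.51 and -2.90). *Col1a1*, *Col1a2* and *Col3a1* also belong to the 10 fibroblast markers, of which 9 were lower in either treatment.

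Of the 16 RGD-type ligands, 15 were tested in control skin. There 9 were lower in immune cells, such as *Postn*, periostin, at -4.94 ± 0.35, and *Fbn1*, fibrillin 1, at -3.42 ± 0.36. The 3 that were higher were *Spp1*, osteopontin (3.36 ± 0.53), *Tgfb1* (2.49 ± 0.44) and *Thbs1* (1.64 ± 0.45). In stretched skin 12 of 16 were lower and 2 higher, *Spp1* (4.02 ± 1.22) and *Tgfb1* (1.90 ± 0.30). Of the adhesion proteins, *Fermt3*, the kindlin of blood cells, was higher in immune cells (4.65 ± 0.47 in control and 4.81 ± 0.34 in stretched skin) while *Fermt2*, the kindlin of fibroblasts, was lower (-2.05 ± 0.33 and -1.82 ± 0.31). *Parvb*, beta-parvin, was higher (5.71 ± 0.51 and 4.73 ± 0.38) and *Parva*, alpha-parvin, lower (-2.59 ± 0.40 and -2.72 ± 0.39). Of 18 core adhesion proteins tested in control skin 5 were higher (*Fermt3*, *Parvb*, *Actn1*, *Tns3* and *Tln1*) and 4 lower (*Parva*, *Fermt2*, *Zyx* and *Itgb1bp1*), and in stretched skin 5 of 19 were higher (*Lims1* in place of *Actn1*) and 6 lower. All calls here are from edgeR's quasi-likelihood test with an adjusted p under 0.05.

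The genes whose TMM-scaled log2 CPM followed *Fn1*, *Itga5* or *Itgb1* most closely were sought among 8854 protein-coding genes over the 16 libraries. These libraries differ in fraction, treatment and depth, and the correlations were not adjusted for that. For *Fn1* they were *Plxdc2* (Pearson r 0.933), *Rnf145* (0.903) and *Jak1* (0.900). For *Itga5* they were *Mta2* (0.952), *Khsrp* (0.942) and *Dvl1* (0.928). For *Itgb1* they were *Vps35* (0.968), *Atp2a2* (0.965) and *Taf5l* (0.948). These values describe the libraries and carry no test.

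Some members share exonic bases with a neighbouring gene. The reads counted for that gene are given here. They do not measure how many reads were ambiguous, since no counting tool is stated. *Apol7d*, antisense to *Fn1* and sharing 292 exonic bases with it, had 0 to 24 reads per library. *Gm49395*, on the strand of *Itga1* with 685 shared exonic bases, had 0 to 7 reads beside 25 to 406 for *Itga1*. *Gm13684*, opposite *Itgav* with 634 shared exonic bases, had 20 to 196 reads beside 229 to 2367 for *Itgav*, and without a stated strand setting these cannot be told apart.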

How the data were processed

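Bulk RNA-seq of 16 mouse skin samples in 4 groups of 4 was analysed from the deposited table, which holds the authors' raw counts per Ensembl gene with no normalization. The labels' protocols name SMART-Seq mRNA LP for cDNA and Nextera XT for the libraries. FastQC 0.11.9, STAR and the mm10 build stand in the submitters' processing notes. The sources used here give no counting tool, strand setting or annotation. Columns were matched to samples by the labels' descriptions. Of 55487 gene IDs, 55394 matched GENCODE M21 (GRCm38, the assembly of mm10), which gave symbols, coordinates and exon lengths, and 2 older symbols in the lists were matched through RefSeq synonyms.

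The 5 comparisons were each fitted to only the groups involved, with edgeR 4.0.16 under R 4.3.3. Genes were kept by filterByExpr at a minimum count of 10 and a minimum total of 15, libraries were scaled by TMM, and the test was the quasi-likelihood test with Benjamini-Hochberg adjustment over all genes tested. Genes with an adjusted p under 0.05 were called. CPM and RPKM of genes are TMM-scaled over 16 libraries, while marker sums and receptor-gene sums are CPM of the library total. The counts are not of independent molecules, since no molecular identifiers are stated. Scripts were tested on simulated data. The chi-square per degree of freedom between 2 libraries of 1 group was 25.1 to 247, so none was counted as a copy of another.

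The members, the 5 gene lists and the 11 marker lists were chosen with earlier results of these data known. The named genes are the 9 members, *Ptprc* for the sort, the 2 members of each list with the smallest unadjusted p in each comparison, and, for *Fn1*, *Itga5* and *Itgb1*, the 3 protein-coding genes (mean CPM at least 10) with the highest correlation. Other list and marker genes that were called in small numbers, such as *Tnc* and *Pdgfrb* in the stromal comparison, were named after their values were seen. The alternatives were RLE scale factors, DESeq2 1.42.0, no filter, 1 fit of all 16 libraries, the title number as a block in that fit, detected genes per library as a covariate, offsets for transcript length and GC content (splines with 4 degrees of freedom), the exclusion of libraries that stand apart (immune control 4, immune stretched 2, stromal stretched 7 and 8), and fits with 1 library omitted.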

Additional observations from a re-analysis of the deposited data

Results flagged for a closer look

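In 3 of 36 groups of 4 (9 genes in 4 groups), 1 library lay far from the other 3 for the group's spread, by Dixon's ratio at the 95% level. Chance flags about 1 in 20 groups. For *Fn1*, stromal stretched 7 had 1209.8 CPM, against 426 to 530 CPM in stretched 5, 6 and 8. For *Itgb5*, stromal stretched 6 had 514.6 CPM, against 306 to 332 CPM in stretched 5, 7 and 8. For *Itga2*, stromal control 3 had 5.382 CPM, against 3.59 to 3.77 CPM in controls 1, 2 and 4. The cause was not tested.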

How the results depend on the processing

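The 800 called genes of the stromal comparison became 2312 under DESeq2, 2115 with no filter, 4 with length and GC offsets, 1 with detected genes as a covariate, and 0 in 1 fit of all 16 libraries, in that fit with the replicate number as a block and without the libraries that stand apart (0 to 1589 with 1 library left out). Called members there were 2 under DESeq2 and 0 in the other 5 of those settings that keep the filter (0 to 1 with 1 library left out). In the immune comparison the counts were 781 genes under DESeq2, 667 genes and 1 member in the fit of all libraries, and 21 genes without libraries that stand apart (0 to 45 genes and 0 to 1 member with 1 left out). For the difference of effects they were 1625 genes under DESeq2, 3924 with no filter, 2 with the block and 4 without libraries that stand apart (0 to 1495 with 1 left out), and no member in any of the 23 alternatives. Of the members called between the fractions, 4 remained in number with length and GC offsets in control skin (5 to 7 with 1 left out), and 3 with the block in stretched skin (5 to 7 with 1 left out), where called genes were 4780 with the block and 4648 with detected genes as a covariate.

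The log2 values that changed sign were these. Stromal, block: *Fn1* -0.76, *Itgb5* -0.26, *Vcl* -0.050. Stromal, detected genes: *Fn1* -0.59, *Itga2* -0.78, *Itga11* -0.30. Stromal, offsets: *Fn1* -0.055, *Itga2* -0.029, *Itgav* -0.023. Stromal, libraries that stand apart left out: *Fn1* -0.31, *Itga2* -0.55. Immune, *Itga11*: RLE -0.041, DESeq2 -0.062, block -0.17, offsets -0.22. Immune, *Ptprc*: block -0.21, libraries that stand apart left out -0.30. Difference, RLE and DESeq2: *Itgav* -0.083 and -0.087, *Itgb3* -0.19 and -0.19, with *Itgb3* -0.044 under no filter. Difference, block: *Itga5* 0.0082, *Itgb1* 0.33. Difference, detected genes: *Itga2* 0.12, *Itga11* 0.96. Difference, libraries that stand apart left out: *Itga2* 0.30, *Itga11* 1.35, *Itgad* 1.03. Fractions in control skin, *Itgav*: no filter -0.21, all libraries -0.10, block -0.14, offsets -0.45, libraries that stand apart left out -0.017. Fractions in stretched skin, *Itgav*: all libraries 0.026, block 0.064, detected genes 0.039, libraries that stand apart left out 0.032. With 1 library left out, the stromal value ran from -0.20 to 0.66 for *Fn1*, -0.082 to 0.42 for *Itga2* and -0.81 to 0.43 for *Itgb7*. The immune value ran from -0.42 to 0.97 for *Itga11* and -0.12 to 0.36 for *Ptprc*. The difference ran from -0.29 to 0.91 for *Fn1*, -1.14 to 0.31 for *Itga11*, -0.13 to 0.28 for *Itgav* and -0.35 to 0.15 for *Itgb3*, and the control-skin fraction value of *Itgav* from -0.14 to 0.018. The cause was not tested.

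The title numbers pair libraries by number only: deviations of same-numbered libraries correlated at -0.12 to 0.16 over 8 pairs, and the replicate block left 0, 0, 0, 5 and 3 called members in the 5 comparisons. *Itga11* had 2 to 162 reads per library in the immune fraction, which limits its precision there.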
